A study of Mus musculus with 24 samples.

Results

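The genes for 10 liver apolipoproteins, Apoa1, Apoa2, Apoa4, Apoa5, Apob, Apoc1, Apoc2, Apoc3, Apoe and Apom, were read by 17 of the 56605 non-control probes of an Agilent single-colour mouse array. A probe belonged to the set when the scanner files gave it one of these gene names. All 17 probes were well above background on each of the 24 arrays and none was saturated, so no value of these 17 probes is a bound. All 17 were among the 32078 probes tested, which had to be well above background on at least 4 of the 6 arrays of a group. RNA came from livers of C57BL/6J mice labelled 68 weeks old, with 6 arrays in each of 4 labelled groups: male pesticide, male control, female pesticide and female control. Per the labels, the pesticide groups ate a diet with added pesticides for 52 weeks and the control groups ate the diet without them; neither the agents nor their doses are used here. No label ties an array to a numbered mouse, and the p-values therefore describe variation among these liver samples, some of which may be technical.

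Sex-linked transcripts contradicted the sex labels on 12 of the 24 arrays, those labelled male pesticide and female control, and fitted the labels on the other 12. Xist, the RNA that coats the inactive X chromosome, was well above background on all 6 arrays of both labelled pesticide groups and on 0 of 6 in both labelled control groups. Eif2s3y, Ddx3y, Kdm5d and Uty, all Y-linked, had the opposite pattern. The labelled diet and the sex of the liver donor therefore cannot be told apart in any comparison of labelled diets below, and the comparisons of labelled males with labelled females set libraries with the same sex-linked pattern against each other. Whether labels of these arrays were exchanged was not tested, and an exchange could also touch their diet labels and so the meaning of every diet comparison. Every group is named by its label. The hepatocyte markers Alb (albumin) and Ttr (transthyretin) were well above background on all 24 arrays, and correlations between arrays lay between 0.972 and 0.996. Each of the 3 slides carried 2 arrays of every group.

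Apolipoproteins are the protein coats of the particles that carry lipid through blood. The liver secretes most of them: ApoB is the backbone of very low density lipoprotein, ApoA-I and ApoA-II form high density lipoprotein, and the small C proteins and ApoE move between particles and steer lipolysis and uptake. ApoC-II activates lipoprotein lipase and ApoC-III restrains triglyceride clearance, ApoA-V promotes it, and ApoM carries sphingosine 1-phosphate on high density lipoprotein. ApoA-IV is made chiefly by the intestine in humans, while in mice the liver makes it too, and its mouse liver transcript is known to rise with hepatic triglyceride and with fasting. Apoa1, Apoc3, Apoa4 and Apoa5 form one gene cluster, as do Apoe, Apoc1 and Apoc2.

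The results turn on the probes of Apoa4, Apom, Apoc3, Apoc2 and Apob, and on 2 probes outside the set that followed Apoa4. Their array sequences, 5′ to 3′, are shown because each probe's signal comes from the 60 bases it carries. Apoa4 and Apom are read by 1 probe each, Apoc2 and Apob by 2 and Apoc3 by 3, of which 1 is printed. Positions are those of the mouse build mm9 in the scanner files. The Apoa4 probe lies at chr9:46051206-46051266 on the plus strand, the Apom probe at chr17:35267047-35267106 on the minus strand and the Apoc3 probe at chr9:46041353-46041412 on the minus strand. The Apoc2 probe lies at chr7:20258597-20258656 on the minus strand and the Apob probe at chr12:8012697-8012756 on the plus strand. The 2 companions of Apoa4, described further on, lie at chr19:5845052-5845111 on the plus strand and at chr9:46050711-46050770 on the minus strand.
Apoa4 (A_55_P2837366): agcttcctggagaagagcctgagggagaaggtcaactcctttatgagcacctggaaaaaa
Apom (A_52_P150236): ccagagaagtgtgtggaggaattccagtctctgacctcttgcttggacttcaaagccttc
Apoc3 (A_51_P310629): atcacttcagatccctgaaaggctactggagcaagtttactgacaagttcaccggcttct
Apoc2 (A_66_P130918): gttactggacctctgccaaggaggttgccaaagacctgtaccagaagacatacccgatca
Apob (A_55_P1957198): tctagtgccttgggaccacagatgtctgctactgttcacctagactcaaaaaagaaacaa
lincRNA probe (A_30_P01020769): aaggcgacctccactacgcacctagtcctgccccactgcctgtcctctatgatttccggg
Gm10680 (A_55_P2136561): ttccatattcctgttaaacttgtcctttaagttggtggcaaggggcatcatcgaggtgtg

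Comparing labelled pesticide with labelled control males, the question being whether hepatic transcripts differ with the diet, 2 of 17 probes passed, both higher, at a limma adjusted p under 0.05. Over all tested probes, 22.2% passed, 11.6% higher and 10.7% lower. In labelled females 3 of 17 passed, 2 higher and 1 lower, against 18.3% of all probes, 8.88% higher and 9.44% lower. Neither share of the apolipoprotein probes exceeded its background. The median log2 fold change of the 17 probes was -0.01 in labelled males and -0.02 in labelled females, against -0.03 and -0.02 over all tested probes. Apom and 1 Apoc3 probe passed in both comparisons, and Apoa4 passed in labelled females. The other 7 genes did not pass in either comparison on the quantile-normalized scale, and 4 of them depended on the scaling, as given with their values below.

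**Figure D1:**
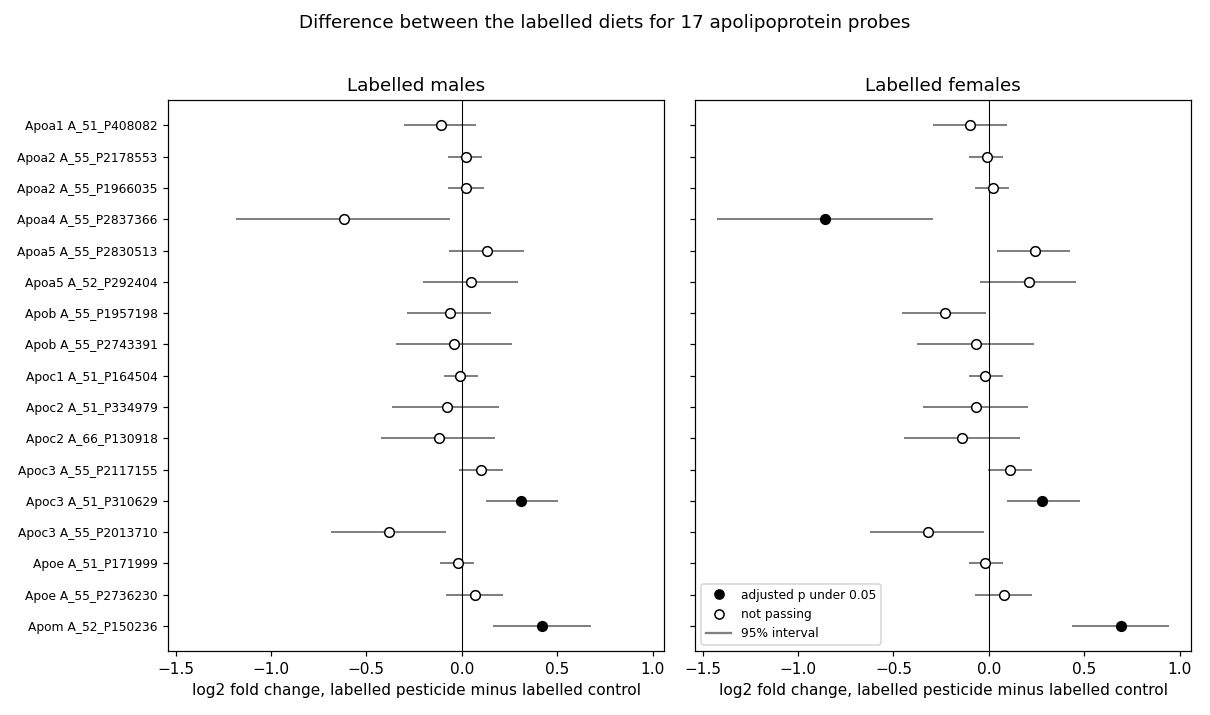
Log2 fold change of labelled pesticide over labelled control (x axis) for each of the 17 apolipoprotein probes (rows), in labelled males on the left and labelled females on the right, with the 95% interval as a line and filled points at an adjusted p under 0.05. Apom and the Apoc3 probe A_51_P310629 lie above 0 on both sides, and Apoa4 has the widest interval and the lowest value on both sides.

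Apoa4 was the most variable of the set by the SD pooled over the 4 groups, though not in each group. On the labelled female control arrays its SD was 0.17, below 0.32 for the Apoc2 probe A_66_P130918 and 0.29 for the Apob probe A_55_P2743391. On the log2 scale of quantile-normalized median signal, used for all levels here, the labelled male pesticide arrays read 15.01, 14.93, 15.39, 15.34, 16.28 and 15.62, against 16.00, 16.72, 15.21, 16.16, 16.94 and 15.27 on the labelled male control arrays. The groups overlapped: 1 labelled male pesticide array was as high as the middle of the controls, and 2 labelled male control arrays were as low as the middle of the pesticide group. The log2 fold change was -0.62 ± 0.27 (SE, 95% interval -1.18 to -0.07), which did not pass (adjusted p = 0.10, two-sided exact permutation p = 0.11). In females the labelled pesticide arrays read 15.13, 15.37, 16.40, 15.99, 15.24 and 15.59, against 16.55, 16.35, 16.35, 16.59, 16.73 and 16.31 on the labelled control arrays. The 6 labelled female control arrays were tight and high, and only 1 labelled female pesticide array reached into their range. Apoa4 fell there by 0.86 on the log2 scale (SE 0.27, 95% interval -1.42 to -0.30, adjusted p = 0.028, two-sided exact permutation p = 0.0087). The difference between these 2 contrasts was 0.24 ± 0.38 (SE, adjusted p = 1), so the labelled sexes were not shown to differ in it.

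The Apoa4 difference depended on single arrays and on the slide. Leaving out 1 array at a time moved it between -1.02 and -0.76 in labelled females, and it no longer passed without labelled female pesticide replicate 1, 2 or 5 or labelled female control replicate 5 (highest adjusted p = 0.069). In labelled males it moved between -0.79 and -0.44, and it passed without labelled male pesticide replicate 5 or labelled male control replicate 3 or 6 (lowest adjusted p = 0.035). Within slides 1, 2 and 3 it was -1.39, -0.32 and -0.16 in labelled males and -1.19, -0.28 and -1.11 in labelled females, below 0 in all 6 cases, with 2 arrays per group on each slide. With the slide as a block the adjusted p was 0.11 in labelled males and 0.032 in labelled females.

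**Figure D2:**
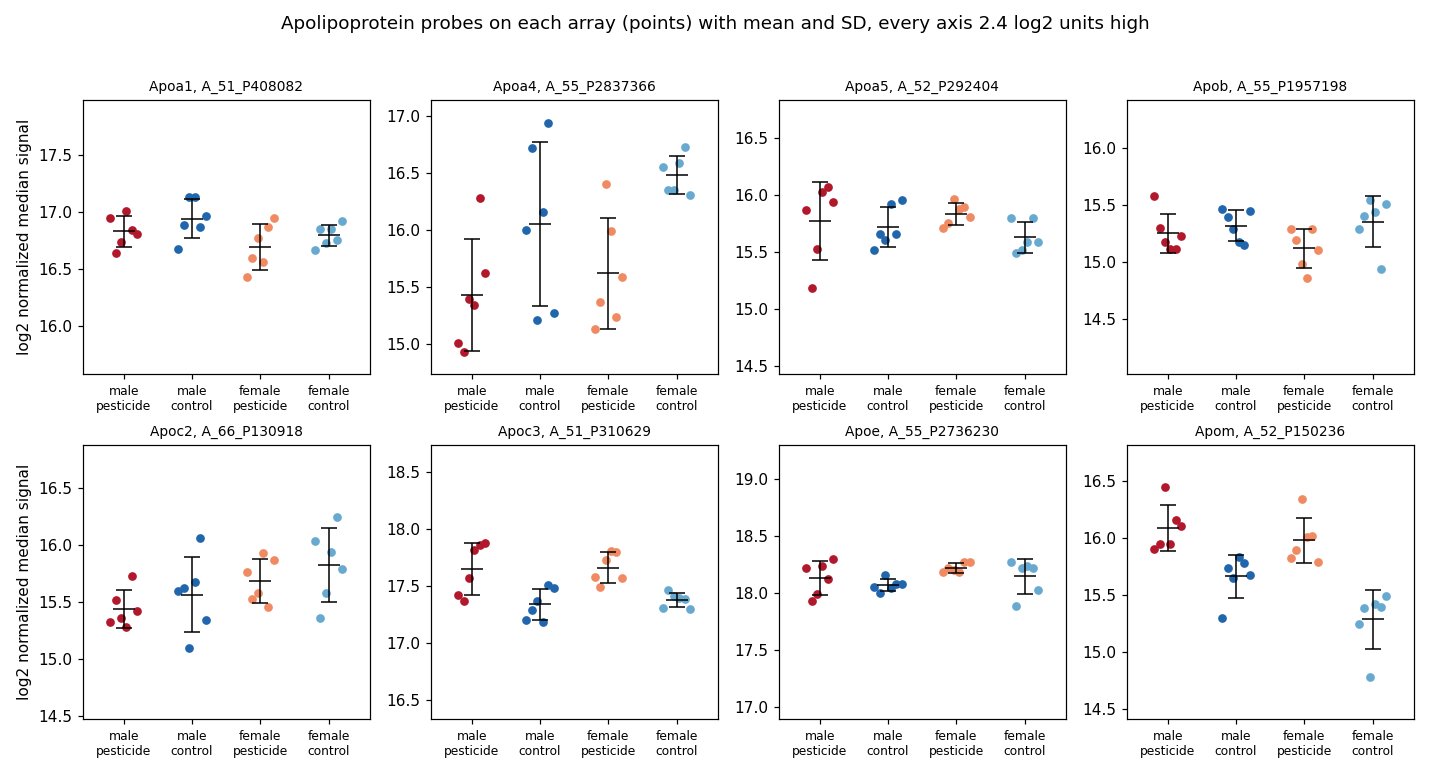
Log2 normalized median signal (y axis, the same height of 2.4 units in every panel) of 8 apolipoprotein probes on each array (points), with the mean and SD of the 6 arrays of each labelled group (black). The Apoa4 points spread from 14.93 to 16.94, while the Apoe points of A_55_P2736230 lie between 17.89 and 18.30.

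Apom was the member with the clearest separation between labelled diets. Its probe read 15.91, 15.95, 16.45, 15.95, 16.16 and 16.11 on the labelled male pesticide arrays, against 15.30, 15.74, 15.65, 15.84, 15.78 and 15.68 on the labelled male control arrays. It read 15.83, 15.90, 16.34, 16.01, 16.02 and 15.79 on the labelled female pesticide arrays, against 15.25, 15.39, 14.78, 15.42, 15.40 and 15.49 on the labelled female control arrays. Every labelled pesticide array lay above every control array of the same labelled sex. Apom rose by 0.42 ± 0.12 in labelled males (SE, 1.34-fold, adjusted p = 0.014) and by 0.69 ± 0.12 in labelled females (SE, adjusted p = 0.00027). The difference between these contrasts was -0.27 ± 0.17 (SE, adjusted p = 1). Within slides 1, 2 and 3 the log2 fold change was 0.41, 0.45 and 0.41 in labelled males and 0.54, 1.08 and 0.46 in labelled females. In labelled males the call was lost when arrays were scaled to their 75th percentile in place of quantile normalization (0.31, adjusted p = 0.069), and in labelled females it was kept (0.67, adjusted p = 0.00038). Groups of 6 without overlap were found for 1 of 17 probes in labelled males, Apom, where 10.2% of all tested probes with a value on every array had them. In labelled females it was 2 of 17, Apom and the Apoc3 probe A_51_P310629, against 7.83%.

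Apoc3 was read by 3 probes that gave different answers. The probe printed above, which starts at base 247 of the transcript named in the scanner files, had 17.42, 17.37, 17.57, 17.82, 17.86 and 17.88 on the labelled male pesticide arrays, against 17.20, 17.29, 17.37, 17.19, 17.51 and 17.48 on the labelled male control arrays. In females it had 17.58, 17.49, 17.73, 17.81, 17.80 and 17.57 on the labelled pesticide arrays, against 17.31, 17.47, 17.41, 17.40, 17.39 and 17.30 on the labelled control arrays. The female groups did not overlap and the male groups did. It rose by 0.31 ± 0.09 in labelled males (SE, adjusted p = 0.015) and by 0.28 ± 0.09 in labelled females (SE, adjusted p = 0.031). With 75th-percentile scaling these values were 0.04 (adjusted p = 0.77) and 0.09 (adjusted p = 0.58), so both calls rested on the quantile normalization. The female call was also lost without labelled female pesticide replicate 3, 4 or 5 or labelled female control replicate 1 or 6 (highest adjusted p = 0.073). The second Apoc3 probe, A_55_P2117155, had log2 fold changes of 0.10 (adjusted p = 0.17) and 0.11 (adjusted p = 0.16). The third, A_55_P2013710, starts at base 54 of another transcript and is dim, with means of 8.85 ± 0.37 on the labelled male pesticide arrays, against 9.24 ± 0.22 on the labelled male control arrays (SD, n = 6 each). Its log2 fold change was -0.38 in labelled males (adjusted p = 0.057) and -0.32 in labelled females (adjusted p = 0.12). Within groups the 3 probes moved together, with r of 0.65 to 0.77 over the 24 arrays, although their group differences had opposite signs under quantile normalization. With 75th-percentile scaling A_55_P2117155 had -0.10 in labelled males and -0.07 in labelled females (adjusted p = 0.28 and 0.55). That is the sign of the dim probe, which had -0.39 and -0.33 on that scale (adjusted p = 0.046 and 0.12).

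Apoc2 did not pass in either comparison. Its printed probe had a median of 15.39 (range 15.28 to 15.73) on the labelled male pesticide arrays, against 15.61 (15.10 to 16.06) on the labelled male control arrays. The median was 15.67 (15.46 to 15.93) on the labelled female pesticide arrays, against 15.87 (15.36 to 16.25) on the labelled female control arrays. The groups overlapped widely in both labelled sexes. The log2 fold changes were -0.12 ± 0.14 and -0.14 ± 0.14 (SE, adjusted p = 0.59 and 0.54), and the second Apoc2 probe had -0.08 and -0.07. The 2 probes followed each other at r = 0.95 within groups, the tightest pair of the set, so the between-array movement of Apoc2 was seen by both.

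Apoa5 did not pass, although both of its probes were higher in labelled female pesticide livers. Probe A_55_P2830513 had log2 fold changes of 0.13 ± 0.09 in labelled males and 0.24 ± 0.09 in labelled females (SE, adjusted p = 0.33 and 0.074). Probe A_52_P292404 had 0.05 ± 0.12 and 0.21 ± 0.12 (SE, adjusted p = 0.81 and 0.24). With 75th-percentile scaling the values of the first probe were -0.11 and 0.08 (adjusted p = 0.52 and 0.71) and those of the second -0.06 and 0.19 (adjusted p = 0.75 and 0.30), so both turned negative in labelled males. In labelled females the first probe passed without labelled female control replicate 1 or 2 (lowest adjusted p = 0.042). The 2 probes agreed weakly within groups, at r = 0.34.

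Apob had no call at either probe. Probe A_55_P1957198 averaged 15.26 ± 0.17 on the labelled male pesticide arrays, against 15.32 ± 0.14 on the labelled male control arrays (SD, n = 6 each). It averaged 15.12 ± 0.17 on the labelled female pesticide arrays, against 15.36 ± 0.22 on the labelled female control arrays (SD, n = 6 each). The log2 fold changes were -0.06 (adjusted p = 0.70) and -0.23 (adjusted p = 0.12), and the female one passed without labelled female control replicate 5 (adjusted p = 0.021). Probe A_55_P2743391, whose file positions span 1615 bases of the genome, had -0.04 and -0.07. The 2 Apob probes did not follow each other within groups (r = 0.04).

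Apoa2, Apoc1 and the Apoe probe A_51_P171999 varied least under quantile normalization, with within-group SDs of 0.02 or 0.03, and Apoa1 had an SD of 0.16. Apoa1, the main protein of high density lipoprotein, averaged 16.83 ± 0.13 on the labelled male pesticide arrays, against 16.95 ± 0.17 on the labelled male control arrays (SD, n = 6 each). Its log2 fold changes were -0.11 ± 0.09 in labelled males and -0.10 ± 0.09 in labelled females (SE, adjusted p = 0.40 and 0.48). Apoc1 averaged 18.87 ± 0.03 on the labelled male pesticide arrays, against 18.88 ± 0.03 on the labelled male control arrays (SD, n = 6 each). Over all 24 arrays the range was 0.05 for the Apoc1 probe, 0.09 for the Apoe probe A_51_P171999 and 0.12 for each Apoa2 probe. These 4 probes ranked between 2 and 15 in brightness among the 56605 probes on every array, and quantile normalization sets the value of each rank to the same level on all arrays. Such a step leaves the brightest probes little room to vary.

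With 75th-percentile scaling of the median signal, these bright members were lower in labelled male pesticide livers. The log2 fold change was -0.30 for Apoa1 (adjusted p = 0.024), -0.21 for both Apoa2 probes (adjusted p = 0.030 and 0.042), -0.23 for Apoc1 (adjusted p = 0.027) and -0.24 for the Apoe probe A_51_P171999 (adjusted p = 0.018). On that scale 6 of 17 probes passed in labelled males, all lower, the sixth being the dim Apoc3 probe, where 22.7% of all tested probes passed and 14.1% passed as lower. Of 9 hepatocyte markers, 3 also passed there, all lower. Alb had -0.20 (adjusted p = 0.023) and Ttr -0.18 (adjusted p = 0.054), and the median of the 9 was -0.20, against 0.00 under quantile normalization. The median over all tested probes was -0.08 on that scale. The share of higher probes among those called in labelled males was 52.1% with quantile normalization and 38.1% with 75th-percentile scaling. In labelled females none of these 5 probes passed on either scale, with 75th-percentile values of -0.19 for Apoa1, -0.19 and -0.18 for Apoa2, -0.18 for Apoc1 and -0.19 for Apoe. In labelled males both Apoa2 probes thus changed sign with the scaling, while Apoa1, Apoc1 and this Apoe probe were below 0 on both scales and differed in size and call. Apoa4 was -0.71 in labelled males and -0.91 in labelled females on the second scale.

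**Figure D3:**
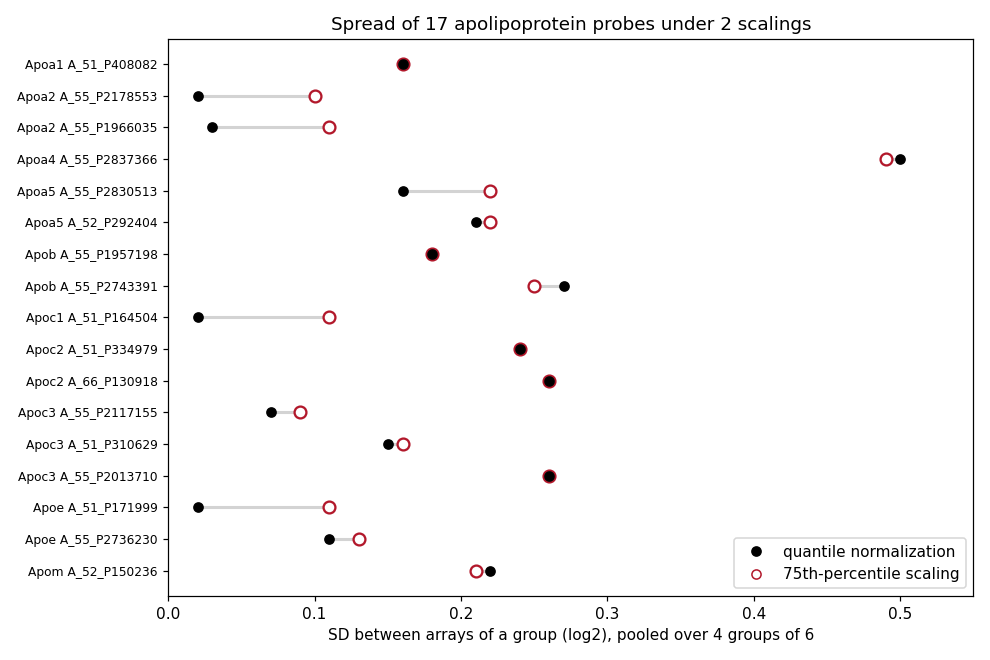
SD between arrays of a group (x axis, log2, pooled over the 4 groups) for the 17 probes (rows) after quantile normalization (filled) and after 75th-percentile scaling (open). Apoa4 lies near 0.50 under both, while Apoa2, Apoc1 and the brighter Apoe probe move from 0.02 or 0.03 to 0.10 or 0.11.

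Apoa4 had a within-group SD of 0.50, pooled over the 4 groups, and the other 16 probes had 0.02 to 0.27. This value placed Apoa4 at the 97.1 percentile of all tested probes, and the 500 probes nearest to it in level had a median SD of 0.14. Its range over the 24 arrays was 2.01, a 4.02-fold difference. Apom had the second widest range, 1.68, but a within-group SD of 0.22, since much of its range lay between labelled diets. The SD of Apoa4 was 0.49 with 75th-percentile scaling, so its contrast with the steady members narrowed from the other side: the SDs of Apoc1 and both Apoa2 probes became 0.10 or 0.11. Apoa4 was known to vary in these arrays when the set was chosen, so its SD is given as a description. The SD of Apoa4 was 0.49 on the labelled male pesticide arrays, against 0.72 on the labelled male control arrays. It was 0.49 on the labelled female pesticide arrays, against 0.17 on the labelled female control arrays, so the labelled sexes ran in opposite directions. Averaged over both, the difference of absolute deviations, pesticide minus control, was 0.02 ± 0.11 (SE, limma adjusted p = 0.97). This test of the average lets opposite differences cancel, and it did not cover either labelled sex alone. Of all tested probes, 0.106% passed that test and 0 of the 17 did, with 1 of the 17 at an unadjusted p under 0.05, against 11.5% of all probes, the Apoc3 probe A_51_P310629 (0.08 ± 0.03 SE, adjusted p = 0.23).

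Comparing labelled males with labelled females, 0 of 17 probes passed on the control diet and 0 of 17 on the pesticide diet, and 0 of 17 passed the test of whether the diet difference differed between labelled sexes. All 3 of these tests called 0% of all tested probes with limma. At an unadjusted p under 0.05, 1 member probe was found on the control diet, 0 on the pesticide diet and 0 for the difference of differences. Over all tested probes these shares were 5.59%, 4.09% and 3.94%. The first was Apom, 0.38 ± 0.12 higher in labelled male than in labelled female control livers (SE, adjusted p = 0.48). Apoa4 was -0.43 ± 0.27 on the control diet and -0.19 ± 0.27 on the pesticide diet (SE, male minus female, adjusted p = 0.97 and 1).

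Whether other members moved with Apoa4 from liver to liver was tested by a slope on the Apoa4 level beside the 4 group means. No other member passed: 0 of 16 probes, where 0.0343% of all other tested probes did, and 3 of the 16 had an unadjusted p under 0.05, against 12.7% of all. These were both Apoc2 probes and 1 Apob probe. The slope of the printed Apoc2 probe was 0.32 ± 0.09 per unit of Apoa4 (SE, adjusted p = 0.14) and the other 0.29 ± 0.08 (SE, adjusted p = 0.15). With weights for array quality both Apoc2 probes passed, with slopes of 0.38 (adjusted p = 0.025) and 0.34 (adjusted p = 0.030). The share of all other tested probes passing with these weights is not given here, so this count has no background. As a description, deviations of the printed Apoc2 probe from its group means followed those of Apoa4 at r = 0.62 (Spearman's rho 0.64) over 24 arrays, and at 0.48 without the 2 arrays farthest from the group mean in Apoa4. The value was 0.16 on slide 1, 0.66 on slide 2 and 0.85 on slide 3, so slide 1 did not show it. It was 0.40 among the 12 labelled pesticide and 0.77 among the 12 labelled control arrays. Among the labelled pesticide arrays the Apoc3 probe A_51_P310629 (r = 0.64) and Apom (r = 0.60) followed Apoa4 more closely than Apoc2 did. In a fit of these 12 arrays alone, 0 of 16 member probes passed the slope test. An unadjusted p under 0.05 was found there for 4 of them, none of Apoc2, and for 4700 of 32077 other tested probes. Over all 24 arrays the Apob probe A_55_P1957198 ran opposite to Apoa4, with a slope of -0.19 ± 0.07 (SE, adjusted p = 0.25). Its r was -0.36, -0.36 and -0.66 within slides 1, 2 and 3. It was -0.74 among the labelled pesticide and -0.36 among the labelled control arrays. The other Apob probe had a slope of 0.05 ± 0.11 (SE, adjusted p = 0.88).

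The promoters of Apoa4 and Apoc2 are shown because Apoc2 had the highest r with Apoa4 among the members over all 24 arrays. Among the 12 labelled pesticide arrays alone other members had a higher r, as given above. Pairs without Apoa4 were not ranked. They are the 250 bases before the RefSeq gene start in the build GRCm38.p6, which has other coordinates than mm9. Apoa4 is at chr9:46240594-46240843 on the plus strand and Apoc2 at chr7:19677942-19678191 on the minus strand. Capitals mark CAAAGT, part of the sequence that HNF4 alpha recognises, and AGGTCA, a core sequence of many nuclear receptor sites, on either strand; TATAAA was searched too.
Apoa4 promoter: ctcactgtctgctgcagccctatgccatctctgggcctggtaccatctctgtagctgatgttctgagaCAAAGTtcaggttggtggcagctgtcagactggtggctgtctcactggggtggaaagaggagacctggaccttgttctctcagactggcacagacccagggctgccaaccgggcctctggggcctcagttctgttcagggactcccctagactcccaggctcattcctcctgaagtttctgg
Apoc2 promoter: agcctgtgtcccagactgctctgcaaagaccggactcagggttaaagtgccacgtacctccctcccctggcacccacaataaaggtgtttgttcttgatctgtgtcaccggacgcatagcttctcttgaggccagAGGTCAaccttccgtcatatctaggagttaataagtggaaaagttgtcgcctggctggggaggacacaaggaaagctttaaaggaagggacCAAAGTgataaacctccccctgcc
Of 12 promoters matched to 8 members, CAAAGT was in these 2, and it was in 12.6% of 32851 promoters of the table. AGGTCA was in 2 of the 12, Apoa2 and Apoc2, and in 14% of all. TATAAA was in 5 of the 12, belonging to Apoa2, Apoa5, Apob and Apoe, and in 12.4% of all. The Apoa5 promoters overlap and hold the same TATAAA, so this site is counted more than once. A match of letters says nothing of binding in these livers.

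Among 14511 named genes, the 8 with the highest likeness to Apoa4 within groups were Prkcz (r = 0.82), Col14a1, Mecr and Atp6v1c1 (0.77 each), Tpi1 (0.76), Gatd1 (0.75), Ctbs (0.74) and Pnpla7 (0.73), over 24 arrays that share their libraries and scaling. Prkcz encodes protein kinase C zeta, and its slope on Apoa4 passed (0.32 ± 0.06 SE, adjusted p = 0.031). Mecr encodes an enzyme of mitochondrial fatty acid synthesis, Tpi1 a glycolytic enzyme and Pnpla7 a lysophospholipase. Pnpla7 fell in both comparisons, with log2 fold changes of -0.83 in labelled males (adjusted p = 4.6e-05) and -0.85 in labelled females (adjusted p = 4.2e-05). Tpi1 fell too, with -0.27 (adjusted p = 0.028) and -0.34 (adjusted p = 0.0095), while Col14a1, a fibril-associated collagen, rose by 0.59 (adjusted p = 0.0076) and 0.44 (adjusted p = 0.049).

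Higher likeness than in any named gene was found at 4 probes without a standard gene symbol, with r of 0.84 to 0.99, which were picked out after their values were seen. The 2 with sequences printed above are described here. The other two are known by transcript identifiers alone. The one at r = 0.90 had log2 fold changes of -0.37 in labelled males and -0.53 in labelled females (adjusted p = 0.077 and 0.015), and the one at r = 0.84 had -0.33 and -0.22 (adjusted p = 0.023 and 0.14). The probe for a long intergenic RNA on chromosome 19 read 13.10, 13.03, 13.61, 13.35, 14.43 and 13.71 on the labelled male pesticide arrays, against 14.19, 14.99, 13.21, 14.41, 15.20 and 13.57 on the labelled male control arrays. On the labelled female pesticide arrays it read 13.26, 13.56, 14.48, 14.16, 13.26 and 13.76, against 14.91, 14.54, 14.39, 14.85, 15.05 and 14.44 on the labelled female control arrays. Its ups and downs were those of Apoa4 array by array, with r = 0.99 within groups and a slope of 1.07 ± 0.05 (SE, adjusted p = 1.7e-12). The likeness held at 0.99, 0.98 and 0.99 within slides 1, 2 and 3. This probe and that of Apoa4 share no run of bases longer than 6 on the same strand and 5 on the opposite one. Whether both can bind one transcript was not tested, since no genome of this build was used here. Its log2 fold change was -0.73 in labelled males (adjusted p = 0.077) and -0.95 in labelled females (adjusted p = 0.025). Gm10680, a predicted gene, is read by a probe 435 bases from the Apoa4 probe on the opposite strand, and it followed Apoa4 at r = 0.88. It read 7.31, 7.19, 7.49, 7.22, 7.68 and 7.61 on the labelled male pesticide arrays, against 8.11, 8.72, 7.44, 8.21, 8.48 and 7.29 on the labelled male control arrays. On the labelled female pesticide arrays it read 7.36, 7.40, 8.24, 7.76, 7.20 and 7.75, against 8.27, 8.49, 8.21, 8.14, 8.22 and 7.94 on the labelled female control arrays. It fell in both comparisons, with -0.63 in labelled males (adjusted p = 0.026) and -0.59 in labelled females (adjusted p = 0.039). Both probes were well above background on all 24 arrays.

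**Figure D4:**
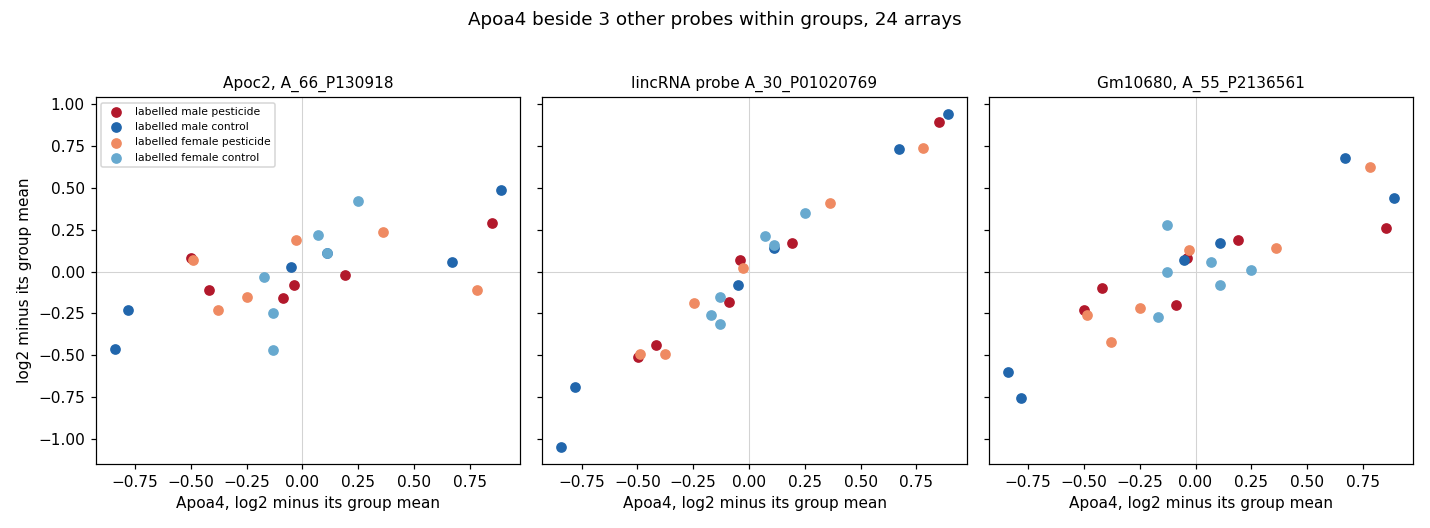
Deviation from the group mean (log2) of Apoa4 (x axis) against that of the Apoc2 probe A_66_P130918, the lincRNA probe A_30_P01020769 and the Gm10680 probe A_55_P2136561 (y axes) on the 24 arrays, coloured by labelled group. The points of the lincRNA probe lie along a line (r = 0.99), those of Gm10680 less closely (r = 0.88) and those of Apoc2 loosely (r = 0.62).

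The wider lipoprotein pathway was read from lists of genes, each gene by its brightest tested probe, on the quantile-normalized scale alone. All values are log2 fold changes, with that of labelled males before that of labelled females. The background for every list count here and below is the share of all tested probes that passed. It was 22.2% in labelled males, 11.6% higher and 10.7% lower, and 18.3% in labelled females, 8.88% higher and 9.44% lower. Genes are named from a list by their small p-values, so they do not stand for the whole list. Of 15 tested receptor and uptake genes, 6 rose and 0 fell in labelled males, and 8 rose and 0 fell in labelled females, with list medians of 0.34 and 0.29 against -0.03 and -0.02 over all probes. Vldlr, the receptor for very low density lipoprotein, rose by 3.34 ± 0.33 in labelled males and by 2.84 ± 0.33 in labelled females (SE, adjusted p = 9.1e-08 and 1.5e-06). Cd36, a fatty acid transporter, rose by 1.82 (adjusted p = 9.5e-05) and 1.07 (adjusted p = 0.013). Sorl1, a sorting receptor of the same family as the low density lipoprotein receptor, rose by 1.42 (adjusted p = 3.8e-05) and 0.93 (adjusted p = 0.0036), and Lrpap1, a receptor chaperone, by 0.85 and 0.92 (adjusted p = 0.00022 and 0.00011).

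Of 20 genes of lipoprotein assembly and secretion, 2 rose and 1 fell in labelled males, and 2 rose and 2 fell in labelled females. Tm6sf2, needed for lipid loading of very low density lipoprotein, rose by 0.66 ± 0.08 and 0.68 ± 0.08 (SE, adjusted p = 1.4e-06 and 1.3e-06), and Dgat2, which makes triglyceride, by 0.63 and 0.51 (adjusted p = 0.0012 and 0.0076). Sec23a, a coat protein of vesicles leaving the endoplasmic reticulum, fell by 0.51 in labelled males (adjusted p = 0.00017), and Smlr1 fell by 0.24 in labelled females (adjusted p = 0.028). Of 13 plasma lipid transfer and lipase genes, 1 rose and 2 fell in labelled males, and 4 rose and 0 fell in labelled females. Pon1, an esterase carried on high density lipoprotein, rose by 0.54 (adjusted p = 0.0032) and 0.43 (adjusted p = 0.020). Lpl, lipoprotein lipase, fell by 0.88 in labelled males (adjusted p = 0.017), as did Lipg, endothelial lipase, by 0.43 (adjusted p = 0.044). Gpihbp1, the capillary anchor of lipoprotein lipase, rose by 0.56 in labelled females (adjusted p = 0.010).

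Of 10 efflux genes, 3 rose in labelled males and 4 in labelled females, and 0 fell. Abcb1a, a drug exporter, rose by 1.54 and 0.99 (adjusted p = 0.00011 and 0.0079), Npc2 by 0.61 and 0.58 (adjusted p = 0.0021 and 0.0040), Abcg1 by 0.58 and 0.60 (adjusted p = 0.025 each), and Npc1 by 0.46 in labelled females (adjusted p = 0.016). Of 14 other apolipoprotein genes, 2 rose and 1 fell in both comparisons. Apoh rose by 0.29 and 0.26 (adjusted p = 0.0011 and 0.0036) and Apol7a by 0.55 and 0.36 (adjusted p = 0.0011 and 0.029), while Apool, a mitochondrial protein, fell, with -0.39 and -0.29 (adjusted p = 0.0016 and 0.016).

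Of 34 genes for regulators of apolipoprotein transcription, 3 rose and 3 fell in labelled males, and 5 rose and 2 fell in labelled females. Esr1, the estrogen receptor alpha, rose by 1.11 ± 0.14 and 1.15 ± 0.14 (SE, adjusted p = 4.8e-06 and 3.6e-06). Nr1h4, the bile acid receptor, fell, with -0.42 and -0.38 (adjusted p = 0.00047 and 0.0015). Nr2f1 rose by 0.48 and 0.36 (adjusted p = 0.00063 and 0.0083). A list of 14 genes reported as targets of CREB3L3, a liver transcription factor, holds the members Apoa4, Apoc2, Apoa5 and Apoa1. Of it, 0 rose and 2 fell in labelled males, Cidea and Cidec. In labelled females 2 rose, Hamp and Pck1, and 3 fell, Cidea, Cidec and Apoa4. Cidec, which enlarges lipid droplets, fell, with -3.18 ± 0.43 and -3.46 ± 0.43 (SE, adjusted p = 1.1e-05 and 3.9e-06), and within groups it followed Apoa4 at r = 0.69 with a slope that did not pass (1.12, adjusted p = 0.079). Cidea, well above background on 22 of 24 arrays, fell, with -5.94 and -7.39 (adjusted p = 4.7e-05 and 2.8e-06). It averaged 5.84 ± 0.17 and 6.04 ± 0.29 on the labelled male and female pesticide arrays (SD). On the matching control arrays it averaged 11.78 ± 1.92 and 13.43 ± 2.81 (SD). Xist averaged 5.08 on the labelled male control arrays, where it was not well above background. The size of the Cidea fall is therefore uncertain. Of 16 steatosis and lipid droplet genes, which include Cidea, Cidec, Vldlr and Cd36, 2 rose and 6 fell in labelled males, and 3 rose and 5 fell in labelled females. Gpc1, a cell-surface proteoglycan, fell, with -3.31 and -3.42 (adjusted p = 7.9e-09 and 5.6e-09). Fitm1, which acts in lipid droplet formation, fell too, with -2.54 and -1.78 (adjusted p = 9.2e-07 and 0.00015).

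Macrophages also make ApoE, and Kupffer cell and macrophage markers moved with the labelled diet. Of 13 markers, 11 rose and 0 fell in both comparisons. Their mean level ranged from 11.41 to 12.12 on the labelled male pesticide arrays, against 10.07 to 11.69 on the labelled male control arrays. It ranged from 10.97 to 12.44 on the labelled female pesticide arrays, against 9.93 to 11.88 on the labelled female control arrays. The Kupffer cell markers Clec4f and Vsig4 rose by 1.43 and 1.88 in labelled males (adjusted p = 0.00011 and 1.1e-05). No marker was at 0, and all 13 were well above background on all 24 arrays. In the same livers the Apoe probe A_55_P2736230 had log2 fold changes of 0.07 ± 0.07 and 0.08 ± 0.07 (SE, adjusted p = 0.55 and 0.48). The other Apoe probe, A_51_P171999, had -0.02 in both (adjusted p = 0.74 and 0.82). With 75th-percentile scaling the first had -0.15 and -0.09 (adjusted p = 0.18 and 0.50), and A_51_P171999 had -0.24 and -0.19 (adjusted p = 0.018 and 0.068). The part of these cells in any member's value was not tested, and in bulk tissue fewer cells of a type and less RNA per cell cannot be told apart. Of 9 sinusoidal endothelium markers 8 rose in labelled males and 7 in labelled females, and of 10 stellate cell and fibroblast markers 9 and 4 rose, with 0 lower in either list. Of 9 hepatocyte markers 0 passed in labelled males and 1, Fgb, rose in labelled females, by 0.28 (adjusted p = 0.024). The intestine also makes ApoA-IV and ApoA-I, and 2 of 10 small intestine epithelium markers were tested. Fabp2, which liver is known to express too, fell, with -0.50 and -0.52 (adjusted p = 0.033 and 0.031), and Lgals4 had -0.17 and 0.28 (adjusted p = 0.65 and 0.43), while Vil1, Cdx1, Cdx2, Lct, Alpi, Muc2 and Cdh17 were not well above background often enough to be tested.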

How the data were processed

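Single-colour Cy3 arrays were scanned and extracted with Agilent Feature Extraction 10.10.1.1, per the file headers, and the deposited files hold raw median, mean, background and processed intensity per spot. The deposited value table holds log2 values that the authors filtered and quantile normalized, per the series' design text; each of 24 scanner files matched its own column. Levels here are log2 of the median signal without background subtraction, quantile normalized over 56605 non-control probes, with spots of a probe averaged. Probes well above background on at least 4 of 6 arrays of a group were tested (32078). A model of 4 group means over 24 arrays was fitted (limma 3.58.1 under R 4.3.3, moderated two-sided tests), and p-values were adjusted by Benjamini-Hochberg over all tested probes at 0.05. Spread was tested with limma on absolute deviations from the group mean, as the average of the diet contrasts of both labelled sexes. Association was tested by a slope on Apoa4 beside the group means. Scripts were tested on simulated data. The number of arrays limits the precision. Median signals per array lay between 63 and 109, and 29935 to 39032 probes were well above background.

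Symbols came from the array design, updated through RefSeq accessions for 21619 probes. All member probes are named, and from each list up to 4 genes with the smallest p in labelled males among those passing in either labelled sex, and the 8 named genes most like Apoa4. One gene that this rule names is not reported here. The members, lists and tests were chosen with earlier results of these data known. Alternatives were other background corrections, scalings and filters, slide and replicate blocks, slides alone, eBayes settings, array weights, the value table and leaving out each array.

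Of the remaining marker lists, 0 of 6 bile duct markers passed in either comparison; 1 of 4 adipocyte markers fell in both; 1 of 4 exocrine pancreas markers fell in labelled males and 0 in labelled females; 1 of 6 T and NK cell markers and 4 of 6 B and plasma cell markers rose in labelled males and 0 in labelled females; 3 and 4 of 5 neutrophil markers rose; and of 3 erythroid markers 2 rose and 1 fell in labelled males and 1 fell in labelled females.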

Additional observations from a re-analysis of the deposited data

Results flagged for a closer look

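In 7 of 68 combinations of probe and group, 1 array stood apart from the other 5 by Dixon's ratio, which chance gives in about 1 of 20 groups. In Apom, labelled male control replicate 1 read 15.30 where the other 5 lay between 15.65 and 15.84, and labelled female control replicate 3 read 14.78 where the others lay between 15.25 and 15.49. In the Apoc3 probe A_55_P2117155, labelled male control replicate 4 read 17.99 where the others lay between 18.10 and 18.14. The other 4 concern 2 of the brightest probes, whose range over all arrays is narrow after quantile normalization. The Apoa2 probe A_55_P2178553 read 18.66 in labelled female pesticide replicate 1 (others 18.74 to 18.78), 18.72 in labelled male control replicate 1 and 18.78 in labelled female control replicate 5 (others 18.74 in both groups). Apoc1 read 18.91 in labelled female pesticide replicate 1, where the others were at 18.86.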

How the results depend on the processing

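The number of apolipoprotein probes passing in labelled males was 2 as reported. With median signals scaled to each array's 75th percentile it was 6, where 22.7% of all tested probes passed. With processed signals so scaled it was 4 of 17, where 7745 of 32078 tested probes passed. On slides 1, 2 and 3 alone, which hold 2 arrays per group, it was 1, 0 and 0. In labelled females, 3 as reported, it was 1, 0 and 0 on the slides alone. No share over all tested probes is given for the slides alone or for the arrays left out below, so those counts have no background. Under the first of these scalings both Apoa2 probes turned from above 0 to -0.21 in labelled males. On slide 1 alone Apoa4 passed in labelled males (-1.39, limma adjusted p = 0.027) and in labelled females (-1.19, limma adjusted p = 0.042). On slide 2 (-0.32 in labelled males, -0.28 in labelled females) and slide 3 (-0.16 and -1.11) it passed in neither. Leaving out each array in turn gave 2 to 4 probes in labelled males, the 4 without labelled male pesticide replicate 5, and 1 to 4 in labelled females, the 1 without labelled female pesticide replicate 5. The Apoa4 log2 fold change then lay between -0.79 and -0.44 in labelled males and between -1.02 and -0.76 in labelled females. With array weights 2 member probes, both of Apoc2, were associated with Apoa4, where 0 were as reported. The share of all other probes called with these weights is not given, so this count has no background either. The causes of these changes were not tested, nor was the part of the rank limit described for the brightest probes. With the replicate number as a block, Apoa4 was -0.62 in labelled males (adjusted p = 0.10) and -0.86 in labelled females (adjusted p = 0.031), and no count of members moved by over 1.5 times. The labels do not say that a number marks shared animals or a batch. Deviations of same-numbered arrays correlated at -0.12 to 0.34, not above 0.1 in every pair, so the numbers were not taken to pair the samples. As a hint from the data, 14 of 24 arrays correlated best with their own number. Same-numbered arrays always shared a slide as well, and the part of the slide in these correlations was not tested. The 3 counts for labelled sex and its interaction with diet were 0 under every alternative run. The Apoa4 spread difference, averaged over both labelled sexes, stayed between -0.05 and 0.06.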
